A study of Mus musculus with 6 samples.

Results

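The genes described here are Trp53, which encodes the tumour suppressor p53, and 8 genes known as its transcriptional targets: Mdm2, Cdkn1a, Ccng1, Trp53inp1, Bbc3, Bax, Phlda3 and Sesn1. They were taken by gene symbol, 9 of the 54532 genes in the deposited count table, and each symbol matched 1 entry. RNA sequencing was done on 6 libraries of 2208L, a mouse mammary tumour carried by balb/c mice. For the CTC group (3 libraries), circulating tumour cells were propagated out of peripheral blood, and the PT group held 3 libraries from the primary tumours of the matched mice, dissociated and then enriched for tumour cells, with replicate numbers shared between the groups. All samples are labelled as untreated, and the labels used here give no age, sex, genotype or enrichment marker. CTC cells were propagated and PT cells are not described as such, so the source of the cells and their handling cannot be told apart.

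The p53 protein binds DNA as a tetramer and is held at a low level by Mdm2, a ubiquitin ligase that is itself a p53 target, which closes a feedback loop. When DNA is damaged or oncogenes are active, p53 accumulates and raises genes that halt the cell cycle, repair DNA, limit growth signals or start apoptosis. In mammary tumours the gene is among those most often mutated or lost. As background from outside the files, 2208L belongs to a panel of transplantable tumours raised from Trp53-null mammary epithelium. Counts summed over a whole gene do not show which exons were read, so they do not check for a disrupted Trp53 allele.

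Sequences at the gene starts are shown first because p53 recognises a defined element, 2 adjacent copies of a 10-base half-site. RefSeq promoter windows (GRCm38.p6, from 250 bases before to 50 bases after a start) were at hand for 8 of the 9 genes, with none for Trp53inp1. The p53 response element was searched by its consensus without a spacer. The consensus reads the same on both strands, so a single search covered them. The stretch that fits best in any window of each gene is given below 5′ to 3′ on the gene's strand, with the bases that fit in capitals.
Cdkn1a: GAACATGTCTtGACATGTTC
Ccng1: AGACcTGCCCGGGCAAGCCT
Trp53: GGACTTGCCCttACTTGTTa
Bbc3: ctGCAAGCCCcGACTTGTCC
Bax: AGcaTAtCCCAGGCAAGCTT
Sesn1: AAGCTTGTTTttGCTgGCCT
Mdm2: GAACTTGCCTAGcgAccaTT
Phlda3: GGcCcTGTCCGGGCggGTgC

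Cdkn1a and Ccng1 fitted at 19 of 20 bases, which 29 of 32851 windows (0.0883%) did at least as well. Trp53, Bbc3, Bax and Sesn1 fitted at 17 bases, as 6.29% of windows did or better. These shares count single windows, whereas the best of 2 windows was taken for Cdkn1a and Sesn1 and of 3 for Bbc3. Mdm2 and Phlda3 fitted at 15 bases, reached by 76.6% of windows, and the known p53 sites of Mdm2 lie in its first intron, outside the window. The stretches around the 2 closest fits are printed with the fitted element in capitals. The one of Cdkn1a lies at chr17:29090878-29090978 on the plus strand, and holds the element at positions -51 to -32 from the upstream one of its 2 RefSeq starts. The one of Ccng1 lies at chr11:40755412-40755531 on the minus strand, with the element at positions -195 to -176 from its start.
Cdkn1a: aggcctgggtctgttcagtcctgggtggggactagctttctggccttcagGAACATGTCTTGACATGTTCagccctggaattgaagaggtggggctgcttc
Ccng1: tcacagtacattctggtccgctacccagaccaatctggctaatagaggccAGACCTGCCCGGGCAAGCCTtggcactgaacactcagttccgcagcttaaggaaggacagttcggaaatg
These are matches of letters in the reference genome; binding was not measured.

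Libraries held between 23845953 and 27897320 counts. Levels are given as CPM, read counts relative to a library total scaled by TMM (trimmed mean of M-values), and 3 counts, the most that a count of 0 allows, came to at most 0.129 CPM. The 4 epithelial markers Epcam, Krt8, Krt18 and Cdh1 summed to between 1971 and 4777 CPM in CTC and between 3596 and 4362 CPM in PT. Leukocyte markers (8 genes) reached at most 0.274 CPM in CTC and 0.652 CPM in PT, with Ly6g, Adgre1 and C1qa among those at 0 counts in all libraries. The highest sums in a library were 1.88 CPM for endothelial, 0.0417 for erythroid and 1.21 for adipocyte markers. Fibroblast markers (4 genes) summed to between 8.80 and 50.02 CPM in CTC and between 14.9 and 68.7 CPM in PT. The 4 genes differed: Pdgfra ran from 8.41 to 38.7 CPM and Dcn from 0 to 44.0 CPM over the libraries. Col1a1 reached at most 1.78 CPM and Col1a2 at most 0.843 CPM. In bulk RNA, fewer cells that express a gene and less RNA of it per cell cannot be told apart.

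All 9 genes passed the filter on low counts. Per kilobase of gene length, Phlda3 had the highest mean level in both groups, at 45.1 ± 35.0 CPM per kilobase in CTC and 104.5 ± 63.1 in PT (SD, n = 3 each here and below). Bax came next at 43.7 ± 12.2 and 70.5 ± 11.7 CPM per kilobase. Trp53 itself was at 18.0 ± 5.53 and 25.04 ± 2.30 CPM per kilobase, and Ccng1 at 23.3 ± 11.1 and 13.9 ± 1.67. Mdm2 was at 13.7 ± 6.69 CPM per kilobase in CTC and 5.96 ± 1.85 in PT. Cdkn1a was at 6.23 ± 2.55 and 3.23 ± 1.94, Bbc3 at 3.67 ± 0.537 and 6.06 ± 2.51, and Sesn1 at 3.48 ± 0.853 and 2.26 ± 0.604 CPM per kilobase. Trp53inp1 was lowest at 0.908 ± 0.611 and 0.643 ± 0.185 CPM per kilobase. In PT the order was clear of overlap from Bax to Trp53 to Ccng1 to Bbc3, and again from Sesn1 to Trp53inp1. There the neighbours in rank Phlda3 and Bax overlapped, as did Bbc3, Mdm2, Cdkn1a and Sesn1. In CTC, Phlda3, Bax, Ccng1 and Trp53 each overlapped with the next in rank, as did Bbc3 with Sesn1, while Mdm2 lay above Cdkn1a, Cdkn1a above Bbc3, and Sesn1 above Trp53inp1 in all libraries.

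**Figure D1:**
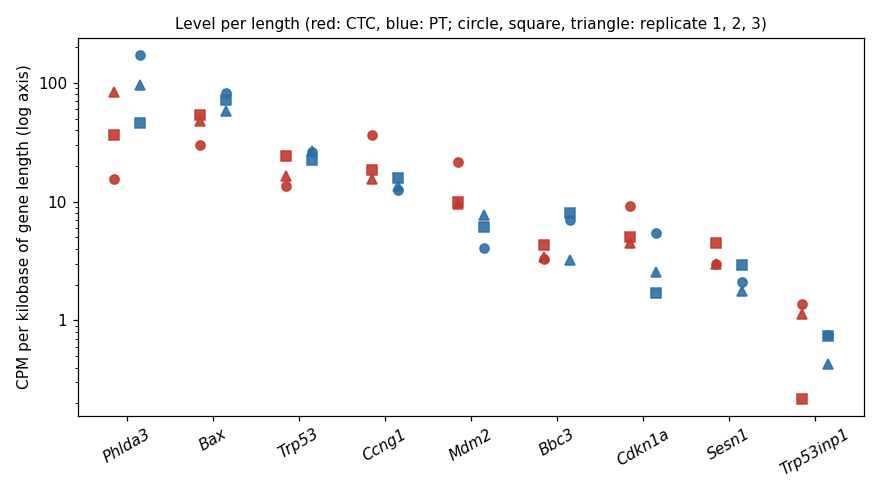
Level of each of the 9 genes in CPM per kilobase of gene length (log axis) for 3 CTC libraries (red) and 3 PT libraries (blue); the circle, square and triangle are replicates 1, 2 and 3. Phlda3 and Bax stand highest and Trp53inp1 lowest in both groups, and the points of Phlda3 are spread widest among the highly expressed genes.

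The comparison of CTC with PT asks how levels of these 9 genes in tumour cells from blood differ from those in the matched primary tumour. Activity of p53 was not measured, and differences in these genes are not a readout of it. Mdm2, Cdkn1a, Ccng1, Sesn1 and Trp53inp1 had higher mean levels in CTC, while Trp53, Bax, Bbc3 and Phlda3 had lower ones. None of the 9 passed the edgeR quasi-likelihood test (Benjamini-Hochberg adjusted p from 0.726 to 0.849), nor did any other gene, so 0% of the 13874 tested were called. At an unadjusted p under 0.05 were 2 of the 9, Mdm2 and Bax, beside 919 of all genes tested (6.62%). Mdm2 was higher in CTC, as were 3.32% of all genes at that p, and Bax was lower, as were 3.31%. This fit left out the pairing of the mice. With the replicate block, the edgeR unadjusted p was 0.028 for Cdkn1a, 0.049 for Mdm2 and 0.072 for Bax. The adjusted p was 0.766, 0.766 and 0.773, and the share of all genes under 0.05 was not counted with the block. The groups did not overlap for 3 of the 9, Mdm2 and Sesn1 with CTC above and Bax with CTC below, beside 12.1% of all genes (5.95% with CTC above and 6.16% with CTC below). Within the 3 matched pairs, 6 of the 9 had the same sign each time, 4 positive and 2 negative, as had 30.7% of all genes. The 9 log2 fold changes had a median of 0.50, which was the value of Trp53inp1, beside 0.05 for all tested genes. DESeq2 called 0 of the 9, while it called 87 genes in all (0.524%), and with the replicate block it called 0 of the 9 and 253 in all (1.84%).

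**Figure D2:**
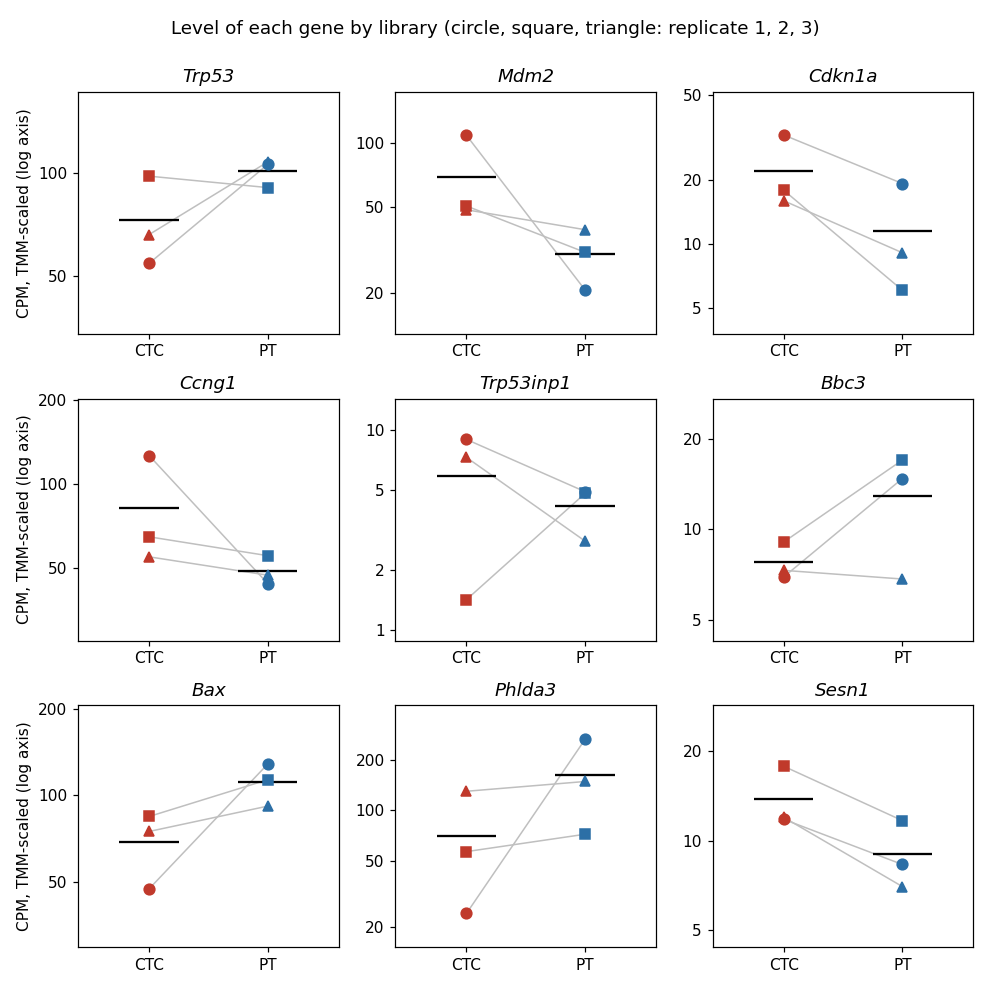
Level of each gene in CPM (TMM-scaled, log axis, scale set per panel) in CTC (red) and PT (blue); circle, square and triangle are replicates 1, 2 and 3, grey lines join the matched libraries of a mouse, and black bars are group means. Mdm2, Cdkn1a, Ccng1 and Sesn1 lie higher in the CTC library of every pair and Bax and Phlda3 lower, and CTC replicate 1 is the highest or lowest library for 7 genes.

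Trp53 (ENSMUSG00000059552, chromosome 11, 69580359 to 69591873, GRCm38) was read in every library, at 54.6, 97.8 and 66.1 CPM for CTC replicates 1, 2 and 3 and at 105.7, 90.6 and 107.5 CPM in PT replicates 1, 2 and 3. CTC replicates 1 and 3 were below all PT libraries, and CTC replicate 2 lay above PT replicate 2. Its log2 fold change (CTC minus PT) was -0.48 (SE 0.29, 95% interval -1.14 to 0.18; edgeR adjusted p = 0.733). It was -0.30 without CTC replicate 1 and -0.76 without CTC replicate 2. The pseudogene Trp53-ps took 1 count over all libraries.

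Mdm2, the ligase that marks p53 for degradation, had the largest positive fold of the 9 genes. It lies on chromosome 10 (ENSMUSG00000020184, 117688875 to 117710758, GRCm38). In order of replicate, CTC showed 108.7, 50.8 and 48.8 CPM against PT values of 20.6, 30.9 and 39.4. Every CTC library lay above every PT library, with CTC replicate 1 at more than any other and its matched PT replicate 1 lowest. CTC differed from PT by 1.20 in log2 (95% interval 0.24 to 2.15, SE 0.41; edgeR adjusted p = 0.726), a 2.29-fold higher level. Without CTC replicate 1 it was 0.72, and without replicate 1 of both groups 0.52.

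Cdkn1a and Ccng1, the genes with the closest-fitting elements, both act in the cell cycle. Cdkn1a encodes p21, the inhibitor of cyclin-dependent kinases through which p53 arrests cells, and lies on chromosome 17 (ENSMUSG00000023067, 29090976 to 29100727, GRCm38). Its CTC libraries had 32.6, 17.9 and 15.96 CPM, its PT libraries 19.2, 6.05 and 9.09. Each CTC library was above its matched PT library, but PT replicate 1 lay above CTC replicates 2 and 3. The group difference in log2 was 0.95 (95% interval -0.23 to 2.13, SE 0.51; edgeR adjusted p = 0.726). Leaving out CTC replicate 1 gave 0.56, PT replicate 2 gave 0.62, and PT replicate 1 gave 1.54.

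Ccng1 encodes cyclin G1, which recruits a phosphatase to Mdm2, and lies on chromosome 11 (ENSMUSG00000020326, 40748552 to 40755311, GRCm38). Its CTC libraries had 126.5, 64.7 and 54.8 CPM, its PT libraries 44.0, 55.4 and 47.1. CTC replicate 1 stood far above the other libraries, and PT replicate 2 lay just above CTC replicate 3, so the groups overlapped. CTC differed from PT by 0.75 in log2 (95% interval -0.08 to 1.57, SE 0.36; edgeR adjusted p = 0.726), and 0.29 without CTC replicate 1. A Ccng1 pseudogene entry had 0 counts.

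The apoptosis genes Bax and Bbc3 had lower means in CTC. Bax, which opens the outer mitochondrial membrane, lies on chromosome 7 (ENSMUSG00000003873, 45461697 to 45466898, GRCm38). Its CTC libraries had 47.3, 84.4 and 74.8 CPM, its PT libraries 128.5, 113.3 and 91.7. All CTC libraries were below all PT libraries, with the widest gap in the pair of replicate 1. The group difference in log2 was -0.69 (95% interval -1.38 to -0.005, SE 0.30; edgeR adjusted p = 0.726), and -0.35 without replicate 1 of both groups.

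Bbc3 encodes PUMA, a BH3-only protein that frees Bax from its inhibitors, and also lies on chromosome 7 (ENSMUSG00000002083, 16308393 to 16318205, GRCm38). In order of replicate, CTC showed 6.96, 9.09 and 7.32 CPM against PT values of 14.8, 17.0 and 6.85. PT replicates 1 and 2 were above every CTC library and PT replicate 3 was below them. CTC differed from PT by -0.72 in log2 (95% interval -1.72 to 0.27, SE 0.43; edgeR adjusted p = 0.733).

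Phlda3, whose product competes with Akt for membrane lipids and so restrains growth signals, varied most in level between libraries. It lies on chromosome 1 (ENSMUSG00000041801, 135766119 to 135769136, GRCm38). Its CTC libraries had 24.0, 56.6 and 130.4 CPM, its PT libraries 267.4, 71.9 and 149.3. The lowest and the highest library were the 2 of replicate 1, and the ranges of the groups overlapped. The group difference in log2 was -1.21 (95% interval -2.75 to 0.33, SE 0.66; edgeR adjusted p = 0.726). Leaving out CTC replicate 1 gave -0.80, PT replicate 1 gave -0.65, CTC replicate 3 gave -2.02, and the pair of replicate 1 gave -0.23.

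Sesn1 and Trp53inp1 complete the set. Sesn1 encodes sestrin 1, which damps mTORC1 signalling, and lies on chromosome 10 (ENSMUSG00000038332, 41809935 to 41908424, GRCm38). In order of replicate, CTC showed 11.8, 17.8 and 11.97 CPM against PT values of 8.32, 11.7 and 7.01. The groups were separate by a narrow margin, between CTC replicate 1 and PT replicate 2, and overlapped with RLE scaling. CTC differed from PT by 0.62 in log2 (95% interval -0.24 to 1.48, SE 0.37; edgeR adjusted p = 0.733), and 0.39 without CTC replicate 2.

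Trp53inp1, a nuclear protein of the p53 stress response and of autophagy, lies on chromosome 4 (ENSMUSG00000028211, 11156431 to 11174379, GRCm38). Its CTC libraries had 8.95, 1.42 and 7.28 CPM, its PT libraries 4.91, 4.81 and 2.78, so that CTC held both the highest and the lowest libraries. The group difference in log2 was 0.50 (95% interval -1.06 to 2.06, SE 0.67; edgeR adjusted p = 0.849). Leaving out CTC replicate 1 gave 0.06, CTC replicate 2 gave 0.95, CTC replicate 3 gave 0.31 and PT replicate 3 gave 0.27, and it was 0.24 with the replicate block and 0.19 in limma-voom.

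CTC replicate 1 was the highest library for 4 of the 9 genes (Mdm2, Cdkn1a, Ccng1 and Trp53inp1) and the lowest for 3 (Trp53, Bax and Phlda3). Over all genes tested it was highest for 24.6% and lowest for 22.9%, the largest share of highest values of the 6 libraries and close to the 23.1% of lowest values in PT replicate 1. Targets of p53 thus stood at both extremes of the same library.

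The genes lying near a member on its chromosome differed between the groups in the member's direction and by much of its size for Mdm2, Bax, Sesn1 and Bbc3, but not for Cdkn1a, Ccng1 and Phlda3. Neighbours of Trp53inp1 differed in its direction by more than the gene itself, and those of Trp53 in its direction by less. For each library the median deviation, on the log2 scale, of the tested genes within 2 Mb was set beside the deviation of the member itself, both from the mean of the 6 libraries. Around Mdm2, 16 neighbours had medians of 0.89, 0.54 and -0.13 in CTC and -0.76, 0.04 and -0.52 in PT. Their mean difference between groups was 0.85, as large in size as for 0.671% of all genes tested, against 1.14 for Mdm2 itself. Around Bax, 100 neighbours differed by -0.60 (as large for 3.36% of genes) against -0.72 for Bax, and their medians were lower in every CTC library than in every PT library. Around Sesn1, 30 neighbours differed by 0.51 (7.72% of genes) against 0.62 for Sesn1, higher in every CTC library at this window but not within 1 or 5 Mb. Around Bbc3, 26 neighbours differed by -0.44 (12.4% of genes) against -0.63 for Bbc3, lower in every CTC library.

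Around Cdkn1a, 48 neighbours differed by 0.07 against 1.04 for Cdkn1a, and around Phlda3, 41 neighbours differed by -0.06 against -1.34 for Phlda3. Around Ccng1 there were 6 neighbours, which differed by 0.13 against 0.65. In CTC replicate 1, the deviations of these 3 members were 1.15, -1.89 and 1.05 for Cdkn1a, Phlda3 and Ccng1, while their neighbours stood at 0.00, -0.02 and 0.11. For Trp53, 98 neighbours differed by -0.22 against -0.51, and for Trp53inp1, 23 neighbours by 0.31 against 0.17. With the neighbours' median subtracted, the groups overlapped for all 9 members, beside 10.5% of all genes that did not overlap. With a window of 5 Mb, which took 15 neighbours of Ccng1, Ccng1 lay higher in every CTC library after the subtraction. The subtracted differences were 0.29 for Mdm2, -0.12 for Bax, 0.11 for Sesn1 and -0.18 for Bbc3, and 0.97 for Cdkn1a, 0.53 for Ccng1 and -1.27 for Phlda3. For Trp53 it was -0.29, and for Trp53inp1 the sign turned from 0.17 to -0.14. The part of chromosomal position in these values was not tested.

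**Figure D3:**
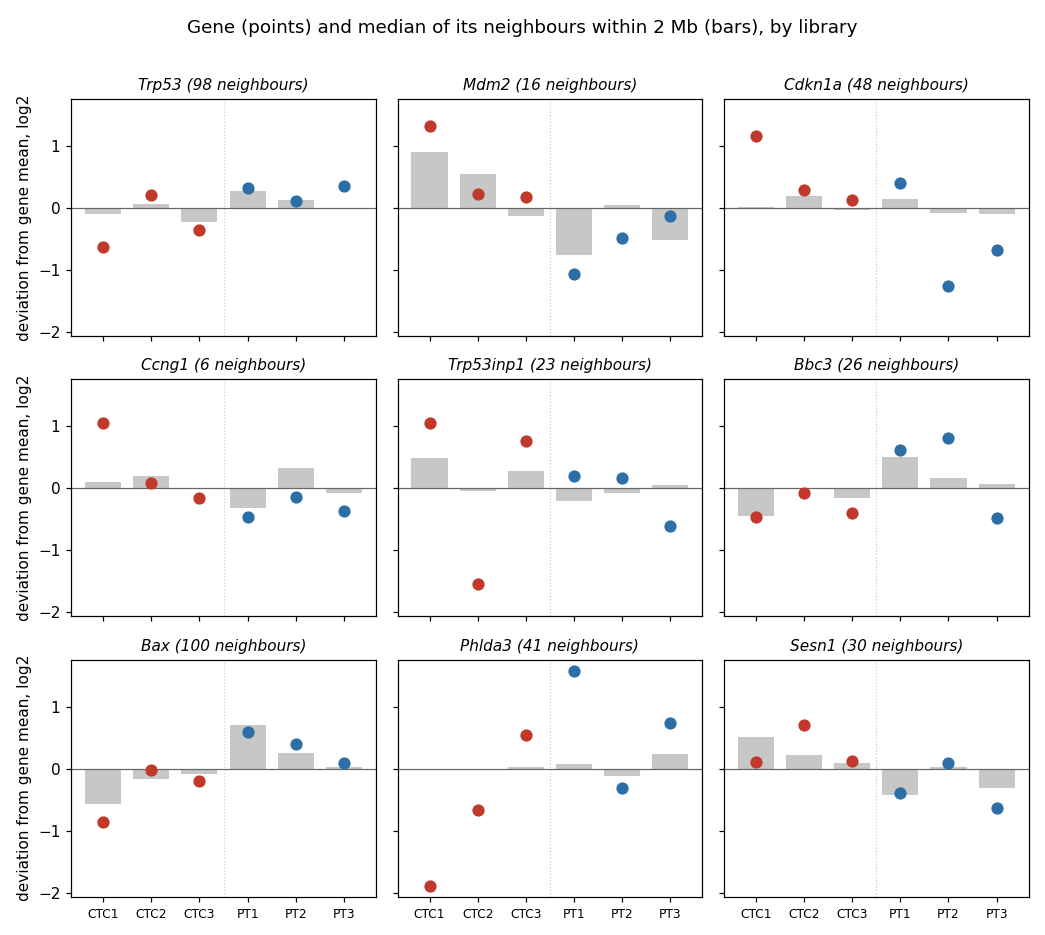
Deviation of each gene from its mean over the 6 libraries on the log2 scale (points, red CTC and blue PT) and the median deviation of the tested genes within 2 Mb of it (grey bars), by library. For Bax points and bars have the same sign in every library, while Cdkn1a, Ccng1 and Phlda3 leave bars near 0 in CTC replicate 1.

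Further genes of the pathway were taken from lists by role. Of 43 further targets in 5 lists, 40 passed the filter on low counts, and 24 had a positive and 16 a negative log2 fold change, with a median of 0.09 beside 0.05 for all genes. None passed the edgeR test (smallest adjusted p = 0.726), and 2 of the 40 had an unadjusted p under 0.05, a share under the 6.62% over all genes. The groups did not overlap for 4 of the 40, with CTC above for 3 and below for 1, a share under the 12.1% over all genes. Sco2, Gdf15 and Ptprv were not tested, with Gdf15 at most at 0.320 CPM and Sco2 at 0 counts in all libraries. Overlaps of the Sco2 entry with other genes were not looked up, so its 0 counts do not show that the gene is silent.

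Of 12 further apoptosis targets, 9 were positive, and the median log2 value was 0.56 beside 0.05 for all genes. None passed the test, and the apoptosis genes Bax and Bbc3 had negative values, as given above. Tnfrsf10b, a death receptor, measured 56.9, 47.5 and 33.7 CPM in the CTC libraries against 29.3, 28.8 and 29.0 in the PT libraries, without overlap. Its log2 fold change was 0.66 (edgeR adjusted p = 0.726). Perp, a desmosome protein linked to p53-driven apoptosis, measured 251.9, 221.7 and 381.0 CPM in the CTC libraries against 189.1, 182.0 and 221.0 in the PT libraries. Its groups were apart only by the margin between CTC replicate 2 and PT replicate 3. The 2 targets with an unadjusted p under 0.05, chosen after their values were seen, were Pmaip1, a BH3-only gene (NOXA), and Apaf1, the scaffold of the apoptosome. Pmaip1 measured 72.2, 11.3 and 2.07 CPM in the CTC libraries against 1.30, 3.86 and 0 in the PT libraries, where 0 allows up to 0.124 CPM. Apaf1 measured 59.3, 30.8 and 20.4 CPM in the CTC libraries against 12.9, 20.5 and 15.0 in the PT libraries. Both were highest in CTC replicate 1, and for both 1 PT library lay above CTC replicate 3.

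Arrest and feedback targets had 4 positive and 5 negative values (median -0.23). By mean log2 CPM they were led by Sfn, the 14-3-3 sigma gene, and Ckap2, a spindle gene. Sfn averaged 115.8 ± 35.5 CPM over CTC and 155.0 ± 116 CPM over PT, and Ckap2 90.6 ± 25.4 and 122.5 ± 51.8 CPM. Plk2, picked after its values were seen, averaged more over CTC, at 172.8 ± 208 CPM against 67.3 ± 22.3 in PT. Its CTC replicate 1 stood at 412.5 CPM. Metabolic and redox targets had 2 positive and 7 negative values (median -0.30), and Prkab1, a subunit of the energy sensor AMPK, measured 70.0, 78.5 and 82.5 CPM in the CTC libraries against 89.2, 122.3 and 93.6 in the PT libraries, without overlap. DNA repair and nucleotide targets had 6 positive and 1 negative value (median 0.10). Among them Xpc, a damage sensor, was at 22.4 ± 2.65 and 20.3 ± 2.68 CPM, and Polh, a polymerase that copies past lesions, at 40.4 ± 1.58 and 39.7 ± 13.9 CPM. Rrm2b, the p53-inducible ribonucleotide reductase subunit, measured 19.2, 6.63 and 7.94 CPM in the CTC libraries against 5.33, 5.62 and 5.44 in the PT libraries, without overlap, and was also picked after its values were seen. Of the secreted and surface targets, Cd82, a tetraspanin, measured 109.6 ± 67.3 against 68.4 ± 43.5 CPM. In these 4 lists the edgeR test called 0 genes, as it did over the whole table.

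**Figure D4:**
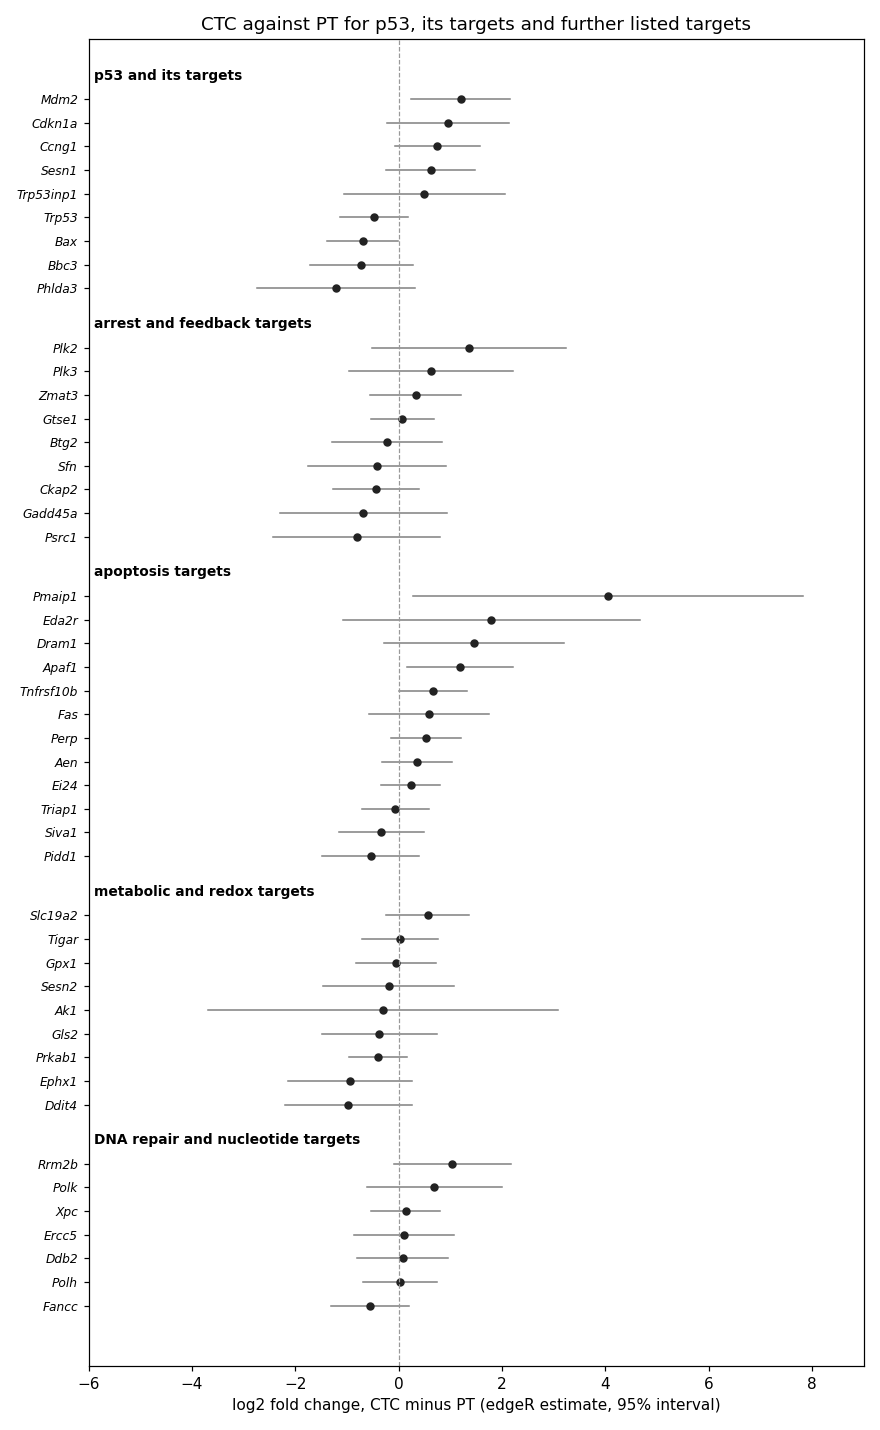
Log2 fold change (CTC minus PT, edgeR) with its 95% interval for the 9 genes and for the further targets tested in 4 of the 5 lists (all but the secreted and surface targets). Intervals include 0 for all genes shown but Mdm2, Bax, Pmaip1 and Apaf1, and within the 9 genes the estimates run from 1.20 for Mdm2 to -1.21 for Phlda3.

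Regulators of p53 had values of both signs, and none passed the test. Of 15, 9 were positive and 6 negative, with a median log2 fold change of 0.02, a smallest edgeR adjusted p of 0.782, and overlap of the groups for each. Cdkn2a, whose alternative product Arf restrains Mdm2, measured 167.8, 386.9 and 163.4 CPM in the CTC libraries against 443.1, 180.0 and 87.7 in the PT libraries, high in 1 library of each group. Usp7, which removes ubiquitin from p53 and Mdm2, was at 181.7 ± 14.0 and 152.8 ± 50.8 CPM. Of the p53 relatives, Trp63, a marker of basal cells, ranged from 0.710 CPM in CTC replicate 1 to 150.7 CPM in CTC replicate 3, with 60.3, 28.8 and 93.7 CPM in PT, and Trp73 had too few counts to test.

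Cell cycle genes that p21 represses through the DREAM complex had no common direction. Of 12, 7 were positive and 5 negative, with a median log2 fold change of 0.09, and none passed the edgeR test (smallest adjusted p = 0.726). Ccnb1, cyclin B1, measured 229.9, 267.6 and 166.3 CPM in the CTC libraries against 152.0, 166.0 and 159.0 in the PT libraries. Its groups lay apart by a narrow margin between CTC replicate 3 and PT replicate 2. CTC replicate 1, where Cdkn1a was highest, was the lowest library for 3 of the 12 genes and the highest for 1. Over all genes tested, that library was lowest for 22.9% and highest for 24.6%.

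Genes with a pattern most like Trp53, Mdm2 and Cdkn1a were sought among 9107 protein-coding genes, by the root mean square difference of log2 CPM centred on each gene's mean over the 6 libraries. For Trp53 they were Phc1, Pcbp1 and Cct7, with differences of 0.040, 0.048 and 0.071 (the median over all genes was 0.530). All of these lie on chromosome 6, whereas Trp53 lies on chromosome 11. For Mdm2 they were Fgd3, Lamb1 and Arf2, on chromosomes 13, 12 and 11, at 0.113, 0.137 and 0.147 (median 0.806). For Cdkn1a they were Chd7, Fhod1 and Gli3, on chromosomes 4, 8 and 13, at 0.179, 0.204 and 0.213 (median 0.857). Picked as the closest of 9107, these genes are bound to differ by less than the median. Trp53, Mdm2 and Cdkn1a themselves deviated from their own means by 0.365, 0.735 and 0.778 (root mean square). None of the 9 nearest genes was another member or a listed target.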

How the data were processed

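The authors deposited raw counts per Ensembl gene for 6 libraries, with a gene length in bases. The submitters' processing notes name HISAT2, GRCm38 and mm10; for the counter, annotation and strandedness, the sources used here give nothing. The 9 genes had the same coordinates in GENCODE M21. Entries overlapping a member took at most 1 count over all libraries.

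CTC and PT were compared with edgeR's quasi-likelihood test (version 4.0.16, R 4.3.3), TMM scaling and filterByExpr, fitted on the whole table and adjusted by Benjamini-Hochberg over 13874 genes (threshold 0.05). A standard error was the log2 fold change over the root of F, and log2 CPM had 2 as prior count. DESeq2 (1.42.0), limma-voom (limma 3.58.1), a replicate block, RLE scaling, no filter and left-out libraries were alternatives. The scripts were tested on simulated data.

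The labels match each PT library to the CTC library of its number, and the design text speaks of matched mice; their deviations from group means correlated at -0.015, 0.157 and 0.298 across genes. No 2 libraries agreed within sampling noise (chi-square per degree of freedom at least 90.4). The labels call the replicates biological. Counts without molecular identifiers give counting limits only.

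Members and lists were chosen with earlier results of these data known. Besides the members, each list names its 2 genes with the largest change among those without overlap and with mean log2 CPM of at least 3. Failing that, it names its 2 genes highest by mean log2 CPM. The 3 most similar genes are named for 3 members. Promoter sequences are from RefSeq. Some genes of the lists are not reported here.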

Additional observations from a re-analysis of the deposited data

How the results depend on the processing

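Each of the 9 members kept the sign of its log2 fold change in every other fit, scaling, filter and left-out library run, and none passed the threshold in any. With the neighbours' median subtracted, Trp53inp1 turned from 0.17 to -0.14. With the replicate block, the pairing of the mice, edgeR called 0 genes and the median of the 9 members was 0.24. That median was 0.19 in limma-voom and 0.21 in DESeq2 with the block, ran from 0.057 to 0.59 with 1 library left out, and was 0.22, 0.61 and 0.089 without replicates 1, 2 and 3 of both groups. The median follows Trp53inp1, the middle gene in most settings. Genes called numbered 87 in DESeq2, 253 in DESeq2 with the block and 199 without a filter on low counts, with no member among them. Members whose groups did not overlap numbered 2 with RLE scaling and 4 without a filter, against 3 in the main fit. With 1 library left out they numbered 3 to 6, and without replicates 1, 2 and 3 of both groups 5, 7 and 6. Fewer libraries overlap less, and the share over all genes was not counted in any of these runs. These counts therefore cannot be read as a result about the members. With the neighbours' median within 2 Mb subtracted, the members without overlap numbered 0, beside 10.5% of all genes (at 5 Mb Ccng1 was separate). That subtraction was chosen after seeing the data, as was DESeq2 with the block. The neighbours' differences kept their sign with windows of 1 and 5 Mb, except -0.07 for Cdkn1a and 0.07 for Phlda3 at 5 Mb. With 3 libraries a group, intervals of the members spanned 1.32 or more on the log2 scale.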

Other observations

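Mdm2 and Trp53 can be set against each other within a library, which needs no scaling between libraries. Mdm2 had 1.99, 0.520 and 0.737 counts per Trp53 count in CTC replicates 1, 2 and 3 and 0.195, 0.341 and 0.366 in PT replicates 1, 2 and 3, higher in every CTC library. The ratio was chosen after the values of both genes were seen, and the genes differ in length, so it compares libraries and not the genes. Mdm2 alone was already higher in every CTC library and the mean of Trp53 lower in CTC, so the ratio is not a separate result.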
